A study of Mus musculus with 2 samples.

Results

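CTCF sites whose peak summit lay in a protein-coding gene's coding sequence or 5′ untranslated region (5′ UTR), away from gene ends, numbered 1498 of 54943 sites, or 2.73%. CTCF was mapped by chromatin immunoprecipitation and sequencing in embryonic mouse lung. Sites were the summits of the optimal peak list, thresholded by the authors for reproducibility between replicates, on chromosomes 1 to 19 and X. A summit was kept where GENCODE M21 annotated coding sequence or 5′ UTR, where every gene's start (TSS) was more than 1 kb away, and where the 3′ end of every protein-coding gene was more than 1 kb away. The rule used position alone and no signal. Without the distance limits, 3403 summits lay in such exons.

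The series held 1 group of 2 samples, biological replicates 1 and 2, of the B6NCrl strain, with no treatment or added allele in the labels. Each was pulverised lung from embryos aged 14.5 days, pooled over dissections and over male and female embryos. The labels give both samples the same biosample and donor record. Their spread may therefore be only technical, and every test below compares sites within these lists, not animals or conditions. Lung tissue mixes epithelium, mesenchyme, vessels and blood, so a weak site in all cells and a strong site in few cells cannot be told apart.

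CTCF is a DNA-binding protein with an array of zinc fingers that reads a long, directional motif. It halts the cohesin ring as it extrudes chromatin loops, and so marks loop anchors and domain borders, and it also binds many promoters. Coding exons are a particular setting for such a protein, because the same bases also spell codons, the sequence is rich in G and C, and RNA polymerase passes through it.

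The motif under the sites is shown first because most comparisons turn on it. A matrix 20 bases wide was learned from sites outside these exons on odd-numbered autosomes, and its most frequent letters spelled TGGCCACCAGGGGGCACTAG. Each line below gives 30 bases of GRCm38 (mm10) on the strand that carries the motif in this direction, with the match in capitals and 5 flanking bases on each side. The first 5 are from coding exons and the next 3 from 5′ UTRs, chosen among the strongest members and the lists described below.
Zfp219: agatgTAGCCGCCAGGGGGCGCTCGgaagc
Pgls: tccagGAACCAGCAGAGGGCGCCCGtgcgc
Cul9: acactCGGCCACCAGGTGGCGCAGCtcaga
Dst: caagaCGGCCAGCAGGTGGCGCCAGacacc
Hey1: ccaagCCGCCACTAGGGGGCGCTCGcaagg
Acbd4: gtgggTTTCCACCAGGGGGCGCGAGgactc
H2-DMa: ccgacCTTCCACCAGGGGGCGGAGGtctcc
Stag1: cagcgCGGCCAGCAGAGGGCGGTCGggacc

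The 1498 sites fell in 1358 genes, which are 6.95% of the 19536 protein-coding genes with sequence that the rule could take. Coding exons held 1241 sites, of which 22 lay in the 5′ UTR of another transcript as well, and 257 lay in 5′ UTR only. Of the host genes, 1230 had 1 site, 117 had 2, 10 had 3 and 1 had 4. The gene with 4 was Vwf, which encodes von Willebrand factor, the clotting protein of endothelial cells and platelets. Of its 4 sites, 2 were overlapping 5′ UTR peaks with summits 203 bp apart and weak peak signals of 18.6 and 6.63. Neither had a replicate 2 summit within 50 bp, and neither was in the authors' conservative peak list.

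Coding exons were more densely occupied than introns taken over all protein-coding genes. They held 42.2 sites per Mb (95% exact Poisson interval 39.9 to 44.6), against 23.5 per Mb (23.2 to 23.8) in introns of protein-coding genes. 5′ UTRs held 111.4 per Mb (98.2 to 125.9), against 81.4 per Mb (79.7 to 83.2) in promoters, the 1 kb on either side of a TSS. These intervals cover counting error only, and they treat sites as independent although 202 members had another site within 1 kb. Lengths counted every known base, repeats among them, and how well reads can be placed in each class was not tested.

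**Figure D1:**
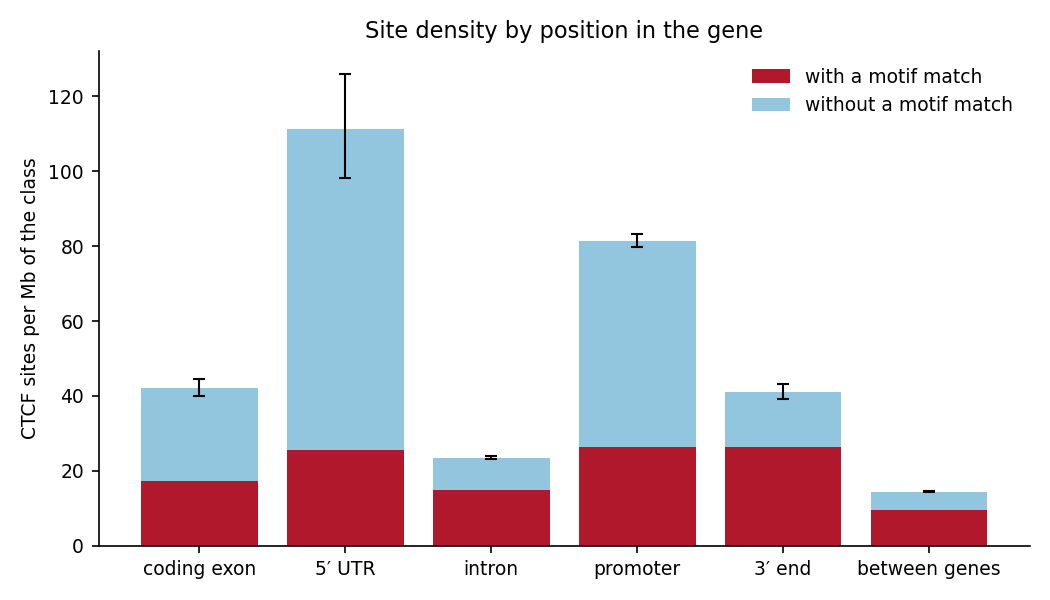
CTCF sites per Mb of each class of sequence, split into sites with a motif match within 50 bp of the summit (dark) and without one (light), with 95% exact Poisson intervals of the total as bars. The dark parts of coding exons and introns are near in height, 17.3 and 14.8 per Mb, while the light parts are 24.9 and 8.74 per Mb.

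Most of that difference in density lay in sites without the motif. Sites with a motif match within 50 bp of the summit had a density of 17.3 per Mb (15.8 to 18.9) in coding exons, against 14.8 per Mb (14.5 to 15.02) in introns. Sites without a match had a density of 24.9 per Mb (23.1 to 26.8) in coding exons, against 8.74 per Mb (8.55 to 8.94) in introns. In 5′ UTRs the density was 25.6 per Mb with a match and 85.8 per Mb without, against 26.4 and 55.05 per Mb in promoters. Base composition moved with these classes. The 101 bases around the summit held a median of 60.4% G and C and 4 CpG dinucleotides at members, against 51.5% and 1 at intronic sites, and its part in the density was not tested.

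The motif was less common under sites in coding exons and 5′ UTRs. On the even-numbered autosomes and X, which the matrix had not seen, 240 of 604 members held a match, or 39.7% (95% Wilson interval 35.9 to 43.7), against 6240 of 10061 intronic sites, or 62.0% (61.1 to 63.0). The odds ratio was 0.404 (Fisher's exact test, two-sided, adjusted p = 5.78e-26, with Benjamini-Hochberg adjustment over the 13 tests made). Against all other sites, with 59.3%, the odds ratio was 0.452 (Fisher's exact test, adjusted p = 6.64e-21). Of members, 39.6% lay within 1 kb of some annotated transcript start, against 8.85% of intronic sites. With every transcript start kept 1 kb away, 176 of 375 members held a match, or 46.9%, against 63.1% of intronic sites. The odds ratio was then 0.517 (Fisher's exact test, adjusted p = 3.70e-09). Over all chromosomes 568 members had a match, or 37.9%, where the share of all 54943 sites was 59.0%. The 1738 sites in other exons had a match in 61.7%, near the 62.8% of intronic sites. Windows 1 kb from the sites passed in 0.937% of cases.

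The lower motif share was present at every level of signal. In the weakest 10% of all sites 3 of 64 members had a match, or 4.69% (1.61 to 12.9), against 32.3% of intronic sites. In the strongest 10% the shares were 78.4% (62.8 to 88.6) of members and 87.9% (85.6 to 89.9) of intronic sites, whose intervals overlap. Taken within deciles of signal, the odds ratio of members to intronic sites was 0.366 (Mantel-Haenszel chi-square test, adjusted p = 1.49e-26). Within deciles of G and C content it was 0.62 (Mantel-Haenszel chi-square test, adjusted p = 5.16e-07), and within deciles of signal crossed with deciles of G and C it was 0.657 (adjusted p = 0.000124). Both of these were added after the values were seen. Learning used strong sites only, and how much of the fall in share toward weak sites comes from that choice was not tested.

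**Figure D2:**
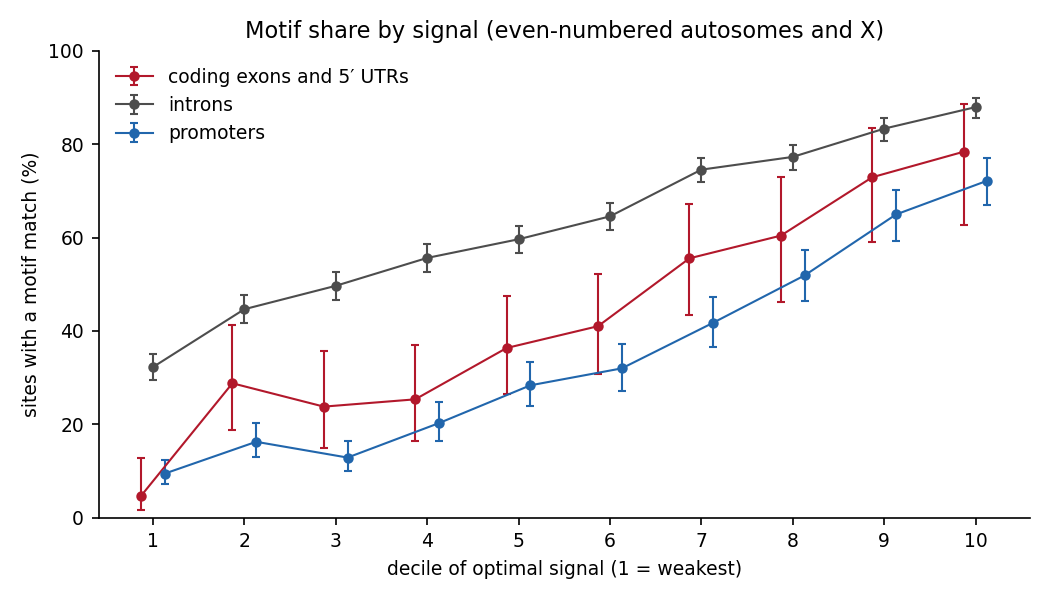
Share of sites with a motif match (y axis, %) in each decile of optimal signal (x axis, 1 is the weakest) on even-numbered autosomes and X, with 95% Wilson intervals, for members, introns and promoters. Members lie below introns in all 10 deciles, from 4.69% against 32.3% in the weakest to 78.4% against 87.9% in the strongest, and above promoters in all but the weakest.

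Against promoter sites the order was the other way round. Members held a match in 39.7%, against 1142 of 3537 promoter sites, or 32.3% (Fisher's exact test, odds ratio 1.38, adjusted p = 0.000627). This call was lost with distances of 2 kb in place of 1 kb, where the difference was 2.76 percentage points (Fisher's exact test, adjusted p = 0.269). It was also lost with a stricter motif threshold, at 1.13 points (Fisher's exact test, adjusted p = 0.415), and among the strongest 10000 sites, at 7.42 points (adjusted p = 0.681).

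Coding and 5′ UTR members differed in the same respect. A match was held by 24 of 109 5′ UTR members, or 22.0% (15.3 to 30.7), against 216 of 495 coding members, or 43.6% (39.3 to 48.0; Fisher's exact test, odds ratio 0.365, adjusted p = 5.68e-05). Most of the 5′ UTR members lay near the start of an alternative transcript, which the rule, counting 1 start per gene, did not remove. Over all chromosomes 227 of 257 5′ UTR members, or 88.3%, were within 1 kb of some annotated transcript start, against 366 coding members, or 29.5%. The motif share was 19.4% in those 227, and 15 of the other 30 had a match. When every transcript start was kept 1 kb away, 905 members stayed and the direction turned, with 8 of 14 5′ UTR members against 168 of 361 coding members holding a match (Fisher's exact test, adjusted p = 0.636).

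Taken with and without the motif together, sites in coding exons and 5′ UTRs were weaker than intronic sites and than all other sites. The signal is the authors' value for each peak, and its median was 50.97 at members, with 54.1 in coding exons and 42.98 in 5′ UTRs, against 58.8 in introns, 52.5 in promoters and 62.6 over all other sites. Sites in other exons, such as 3′ UTRs and non-coding transcripts, had a median of 70.2. The median of all sites was exceeded by 645 of 1498 members, or 43.1% (40.6 to 45.6), against 48.0% of intronic sites (Fisher's exact test, odds ratio 0.818, adjusted p = 0.000368) and 50.2% of all other sites (odds ratio 0.75, adjusted p = 1.82e-07). Against promoter sites, with 44.7%, the difference did not pass (Fisher's exact test, adjusted p = 0.304). Among the strongest 10000 sites alone, which held 188 members, the differences from intronic and from other sites turned and did not pass (Fisher's exact test, both adjusted p = 1.000).

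Within the sites in coding exons and 5′ UTRs, signal went with the motif. The median signal was 101.5 at the 568 members with a match and 39.5 at the 930 without. Intronic sites had 83.7 with a match and 36.55 without, and all other sites had 95.4 and 38.3. With sites split by the motif, the member medians were thus not the lower ones, and this was not tested. In replicate 1 the medians of members were 57.3 with a match and 23.1 without, and in replicate 2 they were 45.6 and 17.9. Members with a match had a median of 58.4% G and C and 3 CpG dinucleotides, and members without had 61.4% and 5.

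Both replicates ranked the members alike, although the thresholding for reproducibility had built part of this in. A replicate summit lay within 50 bp in both lists for 1371 members. The remainder were 55 unmatched in replicate 1 and 83 in replicate 2, 11 of them in both. Spearman's rank correlation between the 2 signals was 0.931 over the matched members, against 0.943 over intronic sites, as a description across sites that share libraries. The unscaled signal of replicate 1 was a median of 1.25 times that of replicate 2. The conservative list held 1292 members, or 86.2%, where 87.5% of all sites were in it, and members did not differ from other sites by the test (Fisher's exact test, adjusted p = 0.186). Without replicate 1 the difference passed, at -2.39 percentage points (Fisher's exact test, adjusted p = 0.00888). The 206 members outside it had the motif in 9.71% of cases.

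**Figure D3:**
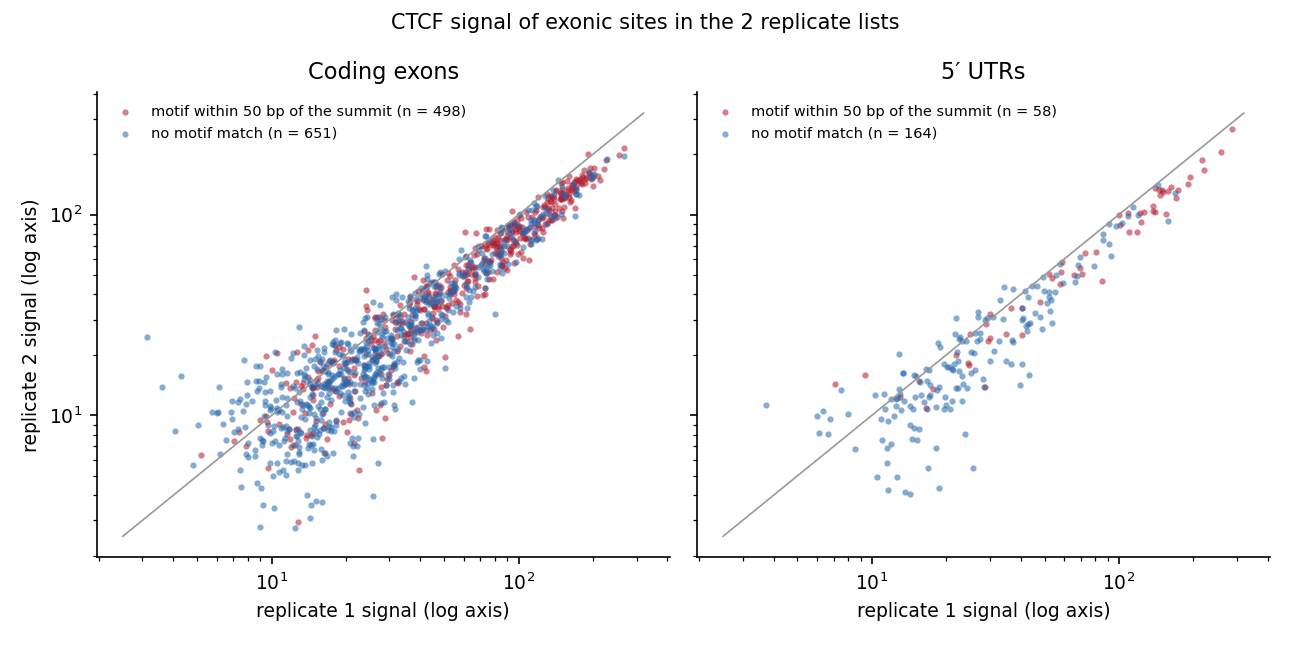
Signal of each member in replicate 1 (x axis) and replicate 2 (y axis), both on log axes, for the 1371 members with a summit within 50 bp in both lists. Coding exons are on the left and 5′ UTRs on the right, dark points have a motif match and light points have none, and the line marks equal signals. Points with a match gather at the upper right, and most points lie under the line.

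The members that shifted most between replicates had optimal signals below the member median of 50.97, up to 49.7 in Tnfrsf13b. They lacked the motif, as did 62.1% of all members. Tnfrsf13b, which encodes the TACI receptor of B cells, had 3.14 in replicate 1 and 24.6 in replicate 2, a shift of 42.4 percentile points toward replicate 2. Cadm4, a cell adhesion molecule, had 12.9 and 27.7 in replicates 1 and 2. In the other direction, Nt5m, a mitochondrial nucleotidase, had 26.9 in replicate 1 and 5.77 in replicate 2, and Nova2, a neuronal splicing regulator, had 25.7 and 3.99. None of these 4 was in the conservative list. At 95% of matched members the shift was 20.7 points or less.

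The strongest coding site lay in Zfp219, a zinc finger transcription factor gene, at chr14:52008866-52009194 (mm10). Its signal was 481.1, with 267.0 in replicate 1 and 213.7 in replicate 2. The motif lay inside coding exon 2, antisense to the gene. Pgls, which encodes the lactonase of the pentose phosphate pathway, had 452.5 in its last coding exon at chr8:71595928-71596268, with 254.4 in replicate 1 and 199.1 in replicate 2. Cul9, a cullin ubiquitin ligase gene, had 3 members, at 410.7, 114.5 and 45.3, in coding exons 13, 27 and 18. The site of 410.7, at chr17:46525652-46525919, had 226.0 in replicate 1 and 186.7 in replicate 2. Celsr2, an atypical cadherin gene of planar cell polarity, had 388.0 at chr3:108401672-108402088. Of the 12 strongest coding members it alone had a higher signal in replicate 2, with 191.3 in replicate 1 and 199.3 in replicate 2. Pcgf2, a Polycomb group gene, had 370.0 at chr11:97689903-97690161. Dst, the gene of the giant cytoskeletal linker dystonin, had 362.4 in coding exon 53 at chr1:34218408-34218669, with 214.3 in replicate 1 and 148.4 in replicate 2.

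The strongest site of all members was in a 5′ UTR, that of Acbd4, an acyl-CoA-binding protein gene, at chr11:103102677-103103016. Its signal was 555.8, with 286.6 in replicate 1 and 267.5 in replicate 2, and it was 180 bp from an annotated transcript start. H2-DMa, which encodes a chain of the chaperone that loads peptides onto class II MHC molecules, followed with 466.2 at chr17:34135217-34135570. Pde2a, a cyclic nucleotide phosphodiesterase gene, had 405.5, 1 bp from a transcript start. Stag1, which encodes a subunit of the cohesin ring that CTCF halts, had 276.7 at chr9:100643465-100643701, 19 bp from a transcript start, with 140.4 in replicate 1 and 135.2 in replicate 2. All 4 of these sites held the motif in the sense direction. Over all 5′ UTR members with a match, 32 were sense and 27 antisense.

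A number of the strongest sites had no match. Of the 102 members in the strongest 10% of all sites, 20 fell under the threshold of 10.1 score units. Their best scores ran from -4.06 to 9.69 with a median of 6.34, where members with a match had a median of 14.6 and all members without one had 2.17. Sequence 1 kb from the members had a median of -9.68. Def6, a guanine nucleotide exchange factor gene of lymphocytes, had a signal of 456.5 at chr17:28226070-28226385 and a best score of 9.31, just under the threshold. Pear1, a receptor gene with EGF-like repeats, had 417.0 at chr3:87756008-87756262, with 227.9 in replicate 1 and 189.3 in replicate 2, and a best score of 5.92. The strongest Vwf site had 355.1 at chr6:125603253-125603616, in coding exon 13, and its best score was -1.67. It lay 116 bp from an annotated transcript start. Of the 20, 9 lay within 1 kb of one, where 39.6% of all members did.

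Density and motif share varied with the place in the coding sequence. Coding exons were classed in 1 representative transcript per gene. First coding exons held 78.4 sites per Mb (65.5 to 93.1), against 38.6 per Mb (36.0 to 41.3) in internal ones. Last coding exons held 49.8 per Mb (42.3 to 58.2). Genes with 1 coding exon held 34.7 per Mb (26.7 to 44.2), an interval that overlaps that of internal ones. The motif share was 28.5% in first, 37.3% in last and 43.8% in internal coding exons, and 24.6% where the gene had 1. That class had the lowest point value in both density and motif share. Olfactory and vomeronasal receptor genes, listed below, held 2 sites in 1.44 Mb, and how much of that class they fill was not counted. By length, density was 33.0 per Mb in coding exons of 1 to 100 bases, 38.1 at 101 to 200, 51.1 at 201 to 500, 43.5 at 501 to 1000 and 46.7 in longer ones. The motif share was 47.5%, 46.2%, 38.2%, 33.7% and 32.2% in the same order. These are descriptions without a test.

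Looking from the motif rather than from the peak, coding exons held about as many matches per length as introns. The matrix passed at 73.3 places per Mb in coding exons, against 74.95 per Mb in introns. A match was called occupied where an optimal summit lay within 50 bp of its centre. On even-numbered autosomes and X, 214 of 971 coding matches were occupied, or 22.0% (19.5 to 24.8), against 6373 of 32464 intronic matches, or 19.6% (19.2 to 20.1; Fisher's exact test, adjusted p = 0.0944). Without replicate 2 the difference of 2.87 percentage points passed (Fisher's exact test, adjusted p = 0.043), and over all chromosomes that of 3.21 points did (adjusted p = 0.000461). Over all chromosomes 23.3% of coding and 34.3% of 5′ UTR matches were occupied, where the share of the 163337 matches of the genome was 20.2%.

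The direction of this comparison depended on what was held constant. Coding matches had lower scores, with a median of 12.3 against 13.1 in introns. Within deciles of match score, coding matches were occupied more often, with an odds ratio of 1.45 (Mantel-Haenszel chi-square test, adjusted p = 8.63e-05). Within deciles of G and C content the odds ratio was 0.627 (Mantel-Haenszel chi-square test, adjusted p = 2.69e-08), and within deciles of score crossed with deciles of G and C it was 0.81 (adjusted p = 0.038), so the direction turned. Both of the last fits were added after the values were seen. In the highest score decile 57 of 70 coding matches were occupied, or 81.4% (70.8 to 88.8), against 72.9% (71.3 to 74.4) of intronic ones.

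**Figure D4:**
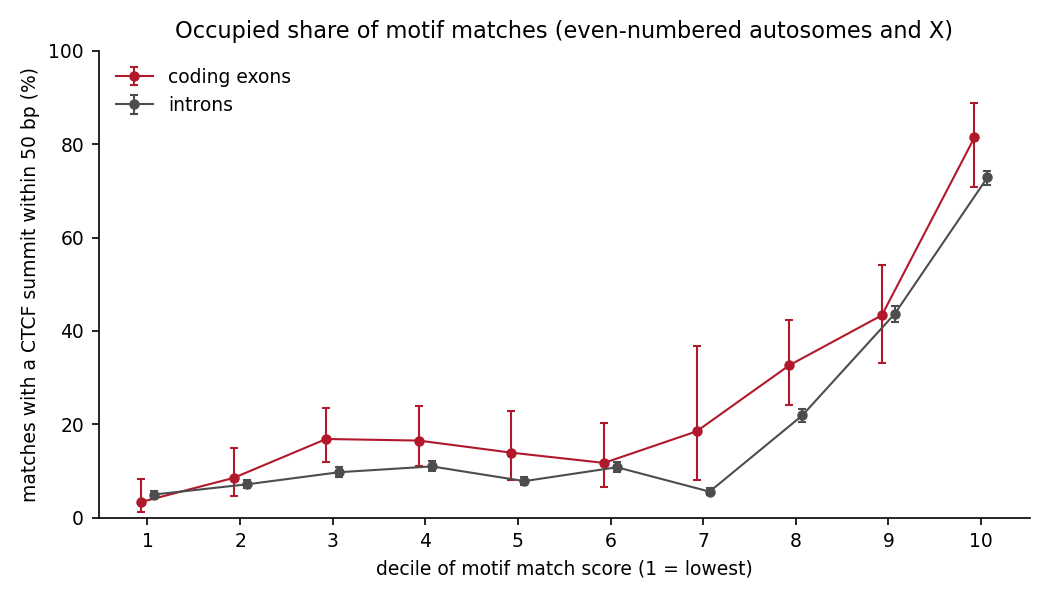
Share of motif matches with a CTCF summit within 50 bp (y axis, %) by decile of match score (x axis, 1 is the lowest), in coding exons and introns of even-numbered autosomes and X, with 95% Wilson intervals. Both are highest in the last decile, at 81.4% in coding exons and 72.9% in introns, but neither rises steadily. Introns fall from 10.8% in decile 6 to 5.61% in decile 7, and coding exons from 16.9% in decile 3 to 11.8% in decile 6. The coding intervals are wide, with 27 to 160 matches per decile.

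Strand and reading frame of the motif were compared between occupied and unoccupied coding matches, and neither passed on the chromosomes set aside for testing. The motif ran in the sense direction of the gene at 86 of 189 occupied matches inside 1 reading frame, or 45.5%, against 335 of 674 unoccupied ones, or 49.7% (Fisher's exact test, adjusted p = 0.324). Over all chromosomes the difference was -6.09 percentage points and passed (Fisher's exact test, adjusted p = 0.0312). No difference in occupied share passed among the 6 combinations of strand and codon position (chi-square test, 5 degrees of freedom, adjusted p = 0.312). The frames were unequally filled whether occupied or not. Sense matches whose first base was at codon position 2 made up 53 of 863 matches, or 6.14%, while those at position 3 made up 227, or 26.3%. Letters of intronic matches read in these frames held a stop codon in 11.9% and 15.6% of cases.

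Of the 509 coding members with a match, 446 had it inside the exon, 57 across an exon edge and 6 outside. The median signal was 96.1 where the motif was inside and 113.4 where it crossed an edge. By direction, 233 were sense with a median signal of 110.6 and 276 antisense with a median of 85.3. The match centre lay a median of 7 bp from the summit.

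Some paralogous genes carried the same motif letters at the same place of the coding sequence and were both bound. This comparison was made after the values were seen. The receptor Smads relay TGF-beta and BMP signals from the membrane to the nucleus. In Smad1, Smad3 and Smad9 the motif lay antisense in the last coding exon, in each with 87 coding bases between the match and the end of the coding sequence. Smad1 and Smad3 had the same 20 bases, and 64 of the 101 bases centred on them were the same. Smad5, a close relative, carried the same stretch with changes, and is printed for that reason.
Smad9: atctcGATCCAGCAGGGGGTGCTCGtgaca
Smad3: agctcAATCCAGCAGGGGGTGCTGGtcact
Smad1: atctcAATCCAGCAGGGGGTGCTGGtaaca
Smad5: atctcAATCCAGCAGGGAGTACTGGtgacg

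Smad9 had the strongest of these sites, with a signal of 161.5 at chr3:54797297-54797484, and 98.9 in replicate 1 and 63.4 in replicate 2. Smad3 had 103.0 at chr9:63650357-63650428, with 52.7 and 49.3 in replicates 1 and 2. Smad1 had 92.9 at chr8:79339671-79339781, with 51.7 and 41.2. Counted from 1 at the first capital and against Smad1, Smad9 differed by A1G and G19C and scored 14.2, where Smad1 and Smad3 scored 14.8. Smad5 differed by G13A and G16A and scored 4.53, under the threshold. No optimal summit lay nearer than 1681 bp to it, and the nearest summit was 1675 bp away in replicate 1 and 643 bp in replicate 2. The other Smad genes had no match in the last coding exon and no optimal summit within 50 bp of the best one, with best scores of -6.78 in Smad2, -4.72 in Smad4, 1.77 in Smad6 and -0.732 in Smad7. Weak summits were listed there in replicate 1 for Smad6, at 6.72 and 27 bp away, and for Smad7, at 5.07 and 9 bp away, but none within 50 bp in replicate 2. With 3 bound genes and 1 unbound gene there are too few for a test of the letters.

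Another such case was the pair of chloride channel accessory genes Clca3b, with 145.6, and Clca3a1, with 33.6. Their windows shared 96 of 101 bases, so reads of the 2 genes may be partly hard to place, which was not tested. A copy of their 20 bases in Clca3a2 was not occupied. Over all coding matches, 81 shared their letters with another in 33 groups, of which 1 was occupied in full, 4 in part and 28 not at all.

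Genes of the pathways that shape the lung held many of these sites. The list took ligands, receptors and effectors of FGF, WNT, hedgehog, BMP, TGF-beta, Notch, retinoic acid and VEGF signalling. It also counted Fgf14, with 59.5, and Fgf12, with 27.6, whose proteins are of the FGF family but are not secreted ligands. Of the 138 listed genes 30, or 21.7% (15.7 to 29.3), held 35 sites, against 6.95% of all protein-coding genes. Their density was 146.8 per Mb (102.3 to 204.2), against 47.1 per Mb over all genes. The sites were weaker than members in general, with a median signal of 36.2 against 50.97, and 11 of 35, or 31.4%, had the motif, against 37.9%. No test was made of this or any other list, since lists differ in length and base composition.

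Among the WNT genes, the receptor gene Fzd7 had the strongest site, 351.6 at chr1:59483796-59484091, with 199.8 in replicate 1 and 153.3 in replicate 2. It is a gene of 1 coding exon, and its best score was 2.54. The related receptor Fzd8 had 59.5 and 50.8 at neighbouring sites, and Fzd5 had 33.6, also in genes of 1 coding exon and without the motif. The ligand gene Wnt5b had 112.1 in a 5′ UTR with the motif, and Wnt11 had 70.6 with a best score of 9.62. Tcf7l2, a transcription factor of the pathway, had 46.6. The sites of Wnt5b, Wnt11 and Tcf7l2 lay 156, 126 and 63 bp from an annotated transcript start.

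Receptor, target and ligand genes of the Notch pathway held sites, those of the ligand genes at low signal. The receptor gene Notch3 had 308.6 in coding exon 24 at chr17:32143261-32143513, with 171.4 in replicate 1 and 136.1 in replicate 2, and no match. Notch2 had 66.6 with the motif, and Notch4 39.9 without. The target gene Hey1, a transcriptional repressor, had 302.8 in its last coding exon at chr3:8664575-8664809, with 157.4 and 146.5 in replicates 1 and 2, and one of the best matches of the list, scored 20.8. Its motif is among those printed above. Of the ligand genes, Dll3 had 36.2 with the motif and Dll1 had 18.8 and 17.4 without. Both Dll1 sites were outside the conservative list, and that of 18.8 had no replicate 2 summit within 50 bp. They lay 630 and 562 bp from an annotated transcript start.

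In the TGF-beta and BMP pathways, the receptor gene Bmpr1b had 236.9 in coding exon 5 at chr3:141862872-141863106, with 131.8 in replicate 1 and 108.3 in replicate 2, and the motif. Bmpr1a had 21.2, also with the motif but outside the conservative list. The ligand genes Tgfb1 and Tgfb2 had 29.9 and 16.2, both in the first coding exon and without a match. They lay 142 and 185 bp from an annotated transcript start. The Tgfb2 site was outside the conservative list. Ltbp4, which binds latent TGF-beta, had 34.0 and 28.2, the weaker one outside the conservative list. Flt4, the VEGF receptor gene of lymphatic endothelium, held 3 sites, at 113.4, 32.9 and 24.4, of which the strongest had the motif. Its values were 61.9 in replicate 1 and 50.3 in replicate 2.

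**Figure D5:**
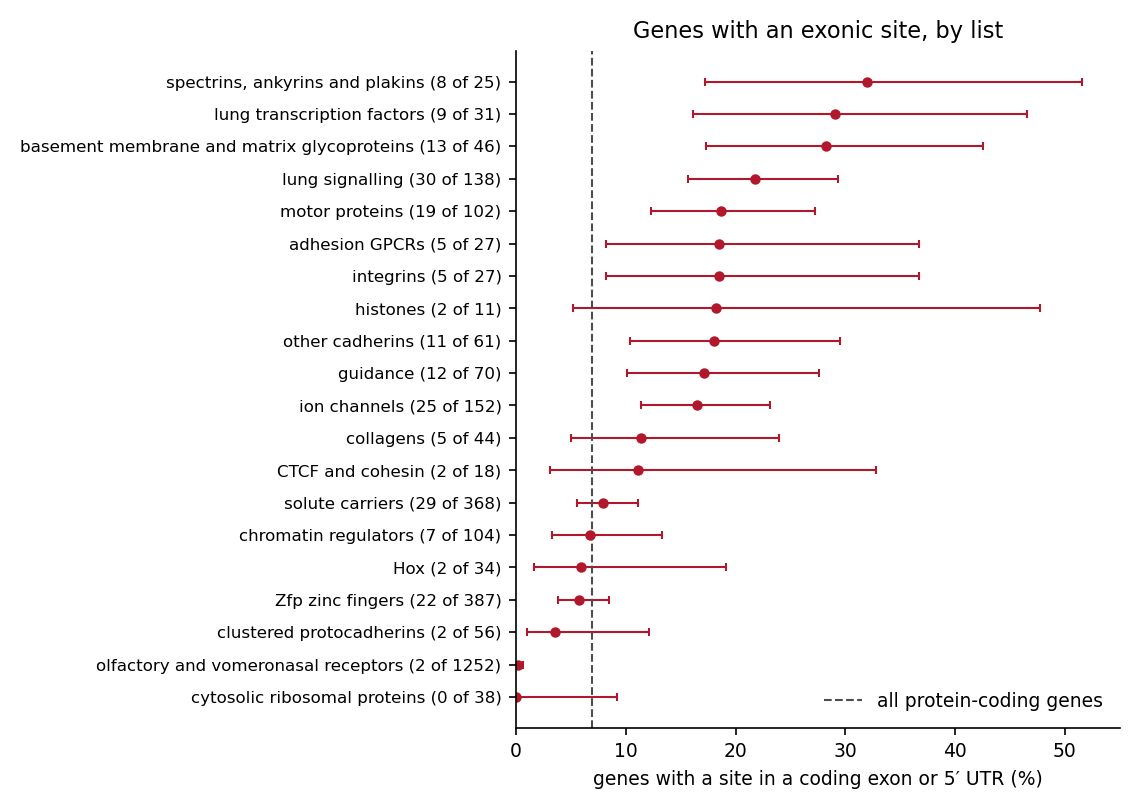
Share of genes with a site in a coding exon or 5′ UTR (x axis, %) for the gene lists (y axis, with genes holding a site of genes in the list), with 95% Wilson intervals. The dashed line marks all protein-coding genes at 6.95%. Spectrins, ankyrins and plakins are highest at 32.0%, and olfactory and vomeronasal receptors lie near 0 at 0.16%.

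Several other lists had shares above that of all genes, and their lengths and densities are given beside them. Spectrins, ankyrins and plakins, the scaffolds under the membrane, had a site in 8 of 25 genes, or 32.0% (17.2 to 51.6), with 8090 bases of such sequence per gene at the median, against 1168 over all genes. Per Mb they held 49.3 sites (27.6 to 81.3), near the 47.1 of all genes. The list of basement membrane and matrix glycoproteins had 13 of 46 genes, or 28.3%. It was led by Tenm2 with 253.9, a teneurin gene whose protein spans the membrane, so the list is wider than its name. The genes of the list held 45.96 sites per Mb, with 5751 bases per gene at the median. Motor proteins had 19 of 102, or 18.6%, led by the kinesin gene Kif19a with 335.7. Their density was 42.4 per Mb, with 4973 bases per gene at the median. Ion channels had 25 of 152, or 16.4%, at 64.8 per Mb (43.4 to 93.1) and 2170 bases per gene at the median, led by Trpm4 with 245.0. Collagens had 5 of 44, or 11.4%, at 25.2 per Mb and 4792 bases per gene at the median, led by Col16a1 with 170.4.

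Lung transcription factors were high by both measures, with 9 of 31 genes, or 29.0% (16.1 to 46.6), and 189.8 sites per Mb (86.8 to 360.4). Only 1 of the 9 sites had the motif, that of Elf5, an epithelial factor, with 245.5 in a 5′ UTR, 13 bp from a transcript start. The median of the 9 was 24.8. Cadherins outside the clusters had 11 of 61, guidance genes 12 of 70, integrins 5 of 27 and adhesion GPCRs 5 of 27, between 17.1% and 18.5% in each case. In the same order they held 57.5, 61.8, 63.0 and 55.8 sites per Mb, with intervals that all included the 47.1 of all genes. Their median lengths were 2730, 2861, 2839 and 3024 bases per gene, against 1168 over all genes.

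The remaining lists lay below, near or above the share of all genes. Olfactory and vomeronasal receptor genes, which serve smell and pheromone sensing, had a site in 2 of 1252, or 0.16% (0.0438 to 0.581), at 1.39 per Mb (0.168 to 5.02). The clustered protocadherins had 2 of 56, or 3.57%, neither with the motif. Zinc finger genes named Zfp had 22 of 387, or 5.68%, led by Zfp219. Chromatin regulators had 7 of 104, or 6.73%, with 3798 bases per gene at the median, led by Bptf with 176.5. Solute carriers had 29 of 368, or 7.88%, and Hox genes 2 of 34, or 5.88%. Per Mb, the Hox sites came to 104.1 (12.6 to 376.2). CTCF and cohesin genes had 2 of 18, or 11.1% (3.10 to 32.8), among them Stag1. Histones had 2 of 11, or 18.2% (5.14 to 47.7), at 308.8 per Mb, led by H3f3b with 197.8. Cytosolic ribosomal protein genes had none of 38 (0% to 9.18%), with 221.5 bases per gene at the median.

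At the borders of the rule the values were these. Exonic summits 800 to 1000 bp from a gene TSS, just outside the rule, numbered 88 with a median signal of 51.3, and those 1000 to 1200 bp away, just inside, numbered 78 with 41.4. Near 3′ ends, 48 summits just outside had a median of 61.6 and 45 just inside had 44.4.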

How the data were processed

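The authors deposited narrowPeak lists on mm10 for each replicate and for the pooled reads, with an optimal and a conservative list thresholded by irreproducible discovery rate (IDR). Their peak signal was used as deposited and was not scaled between lists. Per the deposited README, each replicate list came from that replicate's alignments and 1 control file. For aligner, peak caller and IDR threshold, the sources used here give nothing. Depth is unknown, as peak lists carry no read counts.

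Summits were classed with GENCODE M21 (53843 genes, 139486 transcripts on chromosomes 1 to 19 and X), coding sequence before 5′ UTR, and sequence came from GRCm38 patch 6, whose chromosomes are those of mm10. Coordinates are counted from 1. The matrix grew from a 9-base seed in 15 rounds on the strongest 3000 sites that were not members, on odd-numbered autosomes, dropping 30% of sites per round. A score passed if at most 1% of windows moved by 1 kb reached it. Shares were compared by Fisher's exact, Mantel-Haenszel and chi-square tests at 0.05, adjusted over 13 tests. Intervals are 95% and cover counting error only. Replicate percentiles were ranks of a signal among the optimal sites matched in both replicates.

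The members, the 21 gene lists and the tests were chosen with earlier results of these data known. Genes named were hosts of the 12 strongest coding and 8 strongest 5′ UTR members, the 5 genes with most members, the 3 largest shifts toward each replicate, the strongest member of each list and all lung signalling members, of which some are printed. 1 list and some members are not reported here. Genes with shared motif letters, and the strongest members without a match were named after their values were seen. The other Smad genes, Smad5 among them, were scanned in the last coding exon only. The tests were tried on simulated data. Results were recomputed on the conservative list, on the strongest 10000 sites, without each replicate and on pooled peaks, and with other distances, transcripts and thinning, other motif windows, thresholds and learning sets, and all chromosomes. Scripts used scipy 1.17.1, numpy 2.4.6, numba 0.67.0, matplotlib 3.10.9 and pandas 2.3.3 under Python 3.11.15.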

Additional observations from a re-analysis of the deposited data

How the results depend on the processing

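No paired analysis was possible because there is 1 group. Under 13 other settings and 2 added after the data were seen, 117 of 143 values of tests with a direction kept it and their side of the threshold. The reading frame test did not pass in any of its 13. The member count moved to 188 among the strongest 10000 sites and to 905 with every transcript start kept away. Among the strongest 10000 sites, which leave few members by construction, the differences in signal turned without passing, to 1.08 percentage points against other sites, 1.47 against introns and 0.304 against promoters. There the motif differences no longer passed, at -7.64 against other sites, -10.1 against introns and 7.42 against promoters, where the size was nearly that over all sites, and nor did the odds ratio within signal deciles, at 0.483. The difference of 5′ UTR from coding members turned there to 4.14 points, and with every transcript start to 10.6. The stricter motif threshold, at which few sites have a match, left it at -4.21 without passing. That threshold also lost the difference from promoters (1.13), as did 2 kb distances (2.76). For the conservative list the difference ran from -2.39 to -1.55 points with a replicate left out, and was 0 among the strongest 10000 sites and 0.143 with every transcript start. The occupied share of coding over intronic matches ran from 2.53 to 2.87 points with a replicate left out. It passed with the conservative list (2.94), every transcript start (3.38) and all chromosomes (3.21), and was -0.0535 among the strongest 10000 sites. Within score deciles its odds ratio of 1.45 was lost among the strongest 10000 sites (1.23) and at the stricter threshold (1.81). It turned within G and C deciles (0.627) and within score and G and C deciles crossed (0.81). The sense share passed over all chromosomes (-6.09 points) and turned at the stricter threshold (4.12). The cause of these changes was not tested beyond what is stated. Of the percentiles of named members, 289 moved by less than the spread between replicates and 23 by more.

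Peak lists give no depth, so nothing is known of sites that were not listed. Fisher's test takes sites as independent, and 202 members had another site within 1 kb. The annotation decides membership, and transcripts with little support counted like others.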

Other observations

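A few other coding matches also shared their 20 bases. The letters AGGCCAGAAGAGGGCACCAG, with a score of 20.4, stood in sequence annotated as coding in 3 genes. They were occupied in Dnmt3a, which encodes a de novo DNA methyltransferase, and in the uncharacterised gene 1700088E04Rik, and not in Gpn1, which encodes a GTPase. Whether these letters belong to a dispersed repeat, and whether reads there are hard to place, was not tested. In Adam9, a membrane metalloprotease gene, the letters AGACCACCAGGGGGCCCAGG occurred 4 times in tandem, and 2 of the copies had a summit within 50 bp. Neighbouring copies lay less than 50 bp apart, so the same summit can mark several of them. Which copy was bound cannot be told.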
